A study of Mus musculus with 6 samples.

Results

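The genes described here are 6 myosin light chains (Mylpf, Myl4, Myl6, Myl9, Myl12a, Myl12b), 2 non-muscle myosin heavy chains (Myh9, Myh10), the smooth muscle actin gene Acta2 and Tagln, which encodes the actin-binding protein transgelin. All 10 were found by symbol among the 23244 loci listed for each library. They were taken up because Mylpf was much higher in one group of libraries than in the other, to see whether the difference was shared by other contractile genes. Acta2 and Tagln were also known to be lower in that group. The difference between the groups therefore chose the members, and it is given for them as a description with no test.

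RNA was sequenced in 6 libraries of mouse ES (embryonic stem) cells, which can renew themselves or form any tissue of the embryo. The 3 control libraries came from ES cells with a floxed, undeleted Zscan10, and their titles carry the mark -Tx. The 3 null libraries came from subcloned Zscan10-null ES cells, whose titles lack that mark. The series describes an inducible Cre-loxP line, and both groups are ES cells with no other allele or agent named in the labels. Clone, genotype and any treatment difference cannot be told apart, and no label says that the libraries of a group were separate cultures, so a p-value reflects only how far these samples scatter, which could be technical. Values are FPKM, fragments scaled to transcript length and to library depth, which allows levels of different genes to be compared per length.

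The libraries had 16266 to 16567 loci above 0, and their depths, read from the steps between low values, were 0.986 to 1.09 times that of control replicate 1, which held about 7880000 fragments. Zscan10, a SCAN-domain zinc-finger gene, was at 44.2, 43.0 and 41.9 FPKM in control libraries and at 5.49, 4.43 and 5.47 in null libraries, so the target was low but not at 0 in the libraries labelled null. The ES cell factors Pou5f1 and Sox2 were at means of 538 and 272 FPKM in control and 513 and 268 in null libraries. Of 11480 loci whose mean reached 1 FPKM, limma called 2894 (25.2%) at an adjusted p under 0.05. Null libraries were higher at 1468 (12.8%) and lower at 1426 (12.4%). The count was 1776 without control replicate 1 and 1719 without control replicate 2.

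Myosin II is the motor that pulls on actin filaments. Its heavy chains carry the motor domain, and each heavy chain binds one essential and one regulatory light chain. Phosphorylation of the regulatory light chain switches on non-muscle and smooth muscle myosin, and it drives cell division, cortical tension and adhesion. Myh9 and Myh10 encode non-muscle heavy chains IIA and IIB, Myl12a, Myl12b and Myl9 encode regulatory light chains of non-muscle and smooth muscle, and Myl6 the essential chain that goes with them. Mylpf is the regulatory light chain of fast skeletal muscle, and Myl4 an essential chain of atrial and embryonic muscle. Acta2 and Tagln are abundant in smooth muscle and in contractile fibroblasts, and both are textbook targets of serum response factor (SRF), which binds the CArG box.

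Promoter windows, 250 bases before to 50 after a gene's start, were held by the RefSeq table (GRCm38.p6) for 9 of the 10 members, in 10 windows. The stretch before the start of Mylpf, the gene with the largest difference, is shown first because none of its 250 bases lie in an annotated exon. The start is the one the promoter table gives, and it lies inside the RefSeq span of the locus, which begins further upstream at 127208848. The stretch shown lies at chr7:127211358-127211607 on the plus strand, and capitals mark the single E-box, the hexamer CANNTG that myogenic factors bind.
Mylpf: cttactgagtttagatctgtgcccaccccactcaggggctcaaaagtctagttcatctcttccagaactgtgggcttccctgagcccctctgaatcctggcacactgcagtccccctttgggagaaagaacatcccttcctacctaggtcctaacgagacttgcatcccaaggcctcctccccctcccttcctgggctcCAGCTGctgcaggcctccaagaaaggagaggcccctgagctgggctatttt
The E-box begins 51 bases before the start, and no CArG box or MEF2 site was found in the promoter window of Mylpf on either strand. No window was held for Tagln, and 217 of the 250 bases before the start in the Acta2 window lay in annotated exons. The CArG search therefore says little about the promoters of these genes. The CArG box was found in windows of 2 members, Myl9 and Myl6. Both sites are shown here with the CArG box in capitals because it is the element through which SRF acts.
Myl9: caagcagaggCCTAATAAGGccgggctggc
Myl6: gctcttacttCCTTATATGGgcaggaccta
The Myl9 site lies at chr2:156775293-156775322 on the plus strand, and the Myl6 site at chr10:128493040-128493069 on the minus strand, in a second start window that lies wholly in annotated exons. Of 32851 promoter windows in the table, 1.63% held a CArG box, 3.19% a MEF2 site and 72.3% an E-box, which was found in windows of 8 members. E-boxes read the same on both strands in their fixed letters, and no match of the 3 motifs overlapped another in the sequences shown. A match is a sequence description and no measure of binding.

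Mylpf, on chromosome 7 (mm10, 127208848 to 127214288), was 2.61-fold higher in null libraries. It was at 110.4, 110.2 and 112 FPKM in control libraries and at 291, 305 and 272 FPKM in null libraries. Each null library lay far above each control library, and the 3 control libraries were almost the same. The control mean was 111 ± 0.708 FPKM and the null mean 289 ± 16.7 FPKM (SD, n = 3 each), and the difference on the log2(FPKM + 1) scale was 1.38 with an SE of 0.05. The values stood for 504, 548 and 507 fragments in control and 1311, 1523 and 1240 in null libraries, so counting error was small beside the difference. Among 11480 loci tested, it ranked at number 31 by upward difference on that scale. The annotated exons of the Mylpf transcript overlapped no exon of another gene, and 0 of its 717 windows of 50 bases occurred in a transcript of another gene.

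**Figure D1:**
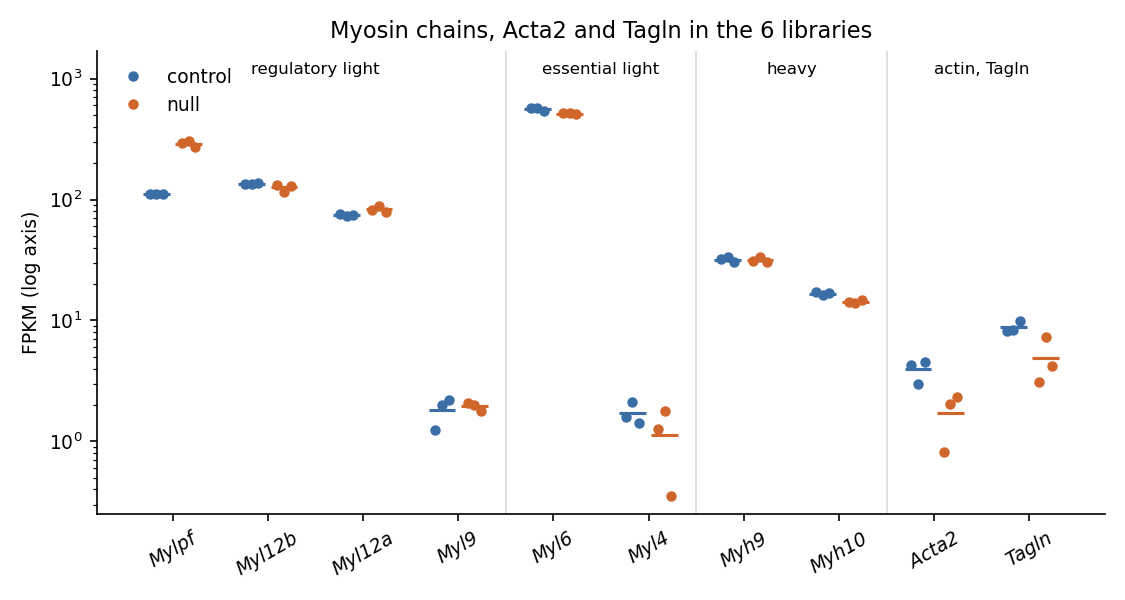
FPKM of the 10 genes in each library on a log axis, with control libraries in blue, null libraries in orange and a short line at each group's mean of 3. Mylpf moves from 111 to 289 FPKM, the other light chains and both heavy chains stay close to their control level or at very low values, and Acta2 and Tagln are lower in null libraries with a wide spread.

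The regulatory light chains of non-muscle myosin did not share the Mylpf difference. Myl12b was at 133, 135 and 138 FPKM in control and 132, 116 and 129 FPKM in null libraries. The null libraries were all slightly lower, null replicate 2 the most so. Myl12a, the neighbouring and related gene, was at 76.4, 72.8 and 74.7 FPKM in control and 81.5, 88.6 and 78.4 FPKM in null libraries, slightly higher with no overlap. The ratios of null to control means were 0.929 for Myl12b and 1.11 for Myl12a. The split between these genes is uncertain, since 29.6% of the 50-base windows of Myl12a occurred in transcripts of another gene, mostly Myl12b, and 462 of its 1937 exon bases lay in annotated Myl12b exons. Myl9, the smooth muscle regulatory chain, was at 1.23, 2.01 and 2.20 FPKM in control and 2.08, 2.003 and 1.78 FPKM in null libraries. These values overlapped and rested on 9 to 16 fragments per library. For the lowest, control replicate 1 with 9 fragments, the exact 95% Poisson interval of 4.12 to 17.1 fragments reached above the 16 fragments of control replicate 2, and such intervals cover counting error only.

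Summed over the 7 regulatory light chain genes measured (Mylpf, Myl9, Myl12a, Myl12b, Myl2, Myl7 and Myl10), the level was 329 ± 2.42 FPKM in control and 509 ± 15.6 FPKM in null libraries (SD, n = 3 each). Without Mylpf the sum was 218 ± 2.06 and 219.6 ± 4.31 FPKM, and the groups overlapped. Mylpf made up 33.5% to 33.8% of the sum in control libraries and 55.3% to 58.6% in null libraries. Myl12b, the largest share in control libraries at 41.2 ± 0.743%, was at 24.8 ± 2.14% in null libraries. The level of the essential chain Myl6 was 1.70 times this sum in control and 1.01 times in null libraries. Myl10 was listed at 0 in every library, and Myl2, the ventricular regulatory chain, had at most 3 fragments.

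**Figure D2:**
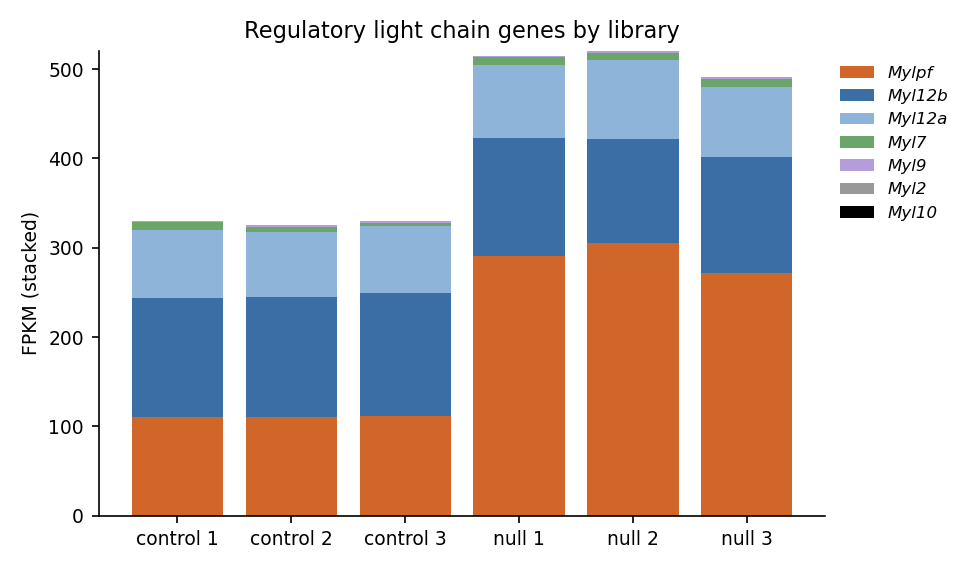
FPKM of the 7 regulatory light chain genes stacked for each of the 6 libraries, with the bar starting at 0. The Mylpf part is larger in each null library, while the sum of the other parts is 218 FPKM in control and 219.6 FPKM in null libraries on average.

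The essential light chains were close between the groups or too low to compare. Myl6, the most abundant of the 10 genes, was at 569.9, 574 and 535 FPKM in control and 518, 519 and 506 FPKM in null libraries. The null libraries were lower without overlap by a small margin, at 0.919 times the control mean. Its value is uncertain, because 53.2% of its 50-base windows also occurred in transcripts of other genes, mostly predicted loci. Myl4 was at 1.60, 2.12 and 1.43 FPKM in control and 1.26, 1.79 and 0.355 FPKM in null libraries, from 8 to 13 and from 2 to 11 fragments. The groups overlapped, and the low value of null replicate 3 rested on 2 fragments with an exact 95% Poisson interval of 0.242 to 7.22.

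Of the heavy chains, Myh9 was level and Myh10 was a little lower in null libraries. Myh9 was at 31.9, 33.3 and 30.3 FPKM in control and 30.9, 33.7 and 30.2 FPKM in null libraries, with overlapping groups and a ratio of 0.993, and the sign of its log2 difference turned with median centring and without control replicate 2, null replicate 1 or null replicate 3. Myh10 was at 17.1, 16.3 and 16.7 FPKM in control and 14.2, 13.8 and 14.7 FPKM in null libraries. Each null library lay below each control library, and the ratio of means was 0.852, from 3261 fragments in control and 2771 in null libraries. Myh9 made up 61.5 ± 1.57% of the summed level of Myh9, Myh10 and Myh14 in control and 64.8 ± 1.81% in null libraries, and those shares overlapped.

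Acta2, on chromosome 19 (mm10, 34240336 to 34255585), was at 4.30, 2.97 and 4.52 FPKM in control libraries and at 0.821, 2.04 and 2.33 FPKM in null libraries. The groups did not overlap, but both were scattered, with null replicate 1 lowest. The null mean was 0.440 times the control mean (3.93 ± 0.838 and 1.73 ± 0.80 FPKM, SD, n = 3 each), from 64 to 89 fragments per control library and 16, 44 and 46 per null library. These numbers imply a transcript 1.23 times as long as the GENCODE one. The GENCODE transcript has its lowest coordinate at 34241090, inside the RefSeq span given above, so it may be shorter than the one the authors used. If it is not, the numbers may not be whole fragments and the true ones may be fewer. Tagln, on chromosome 9 (mm10, 45929628 to 45936058), was at 8.17, 8.29 and 9.94 FPKM in control and 3.08, 7.31 and 4.17 FPKM in null libraries. Null replicate 2 came close to the controls, and null replicate 1 was again lowest. The mean ratio was 0.552 (8.80 ± 0.991 and 4.86 ± 2.19 FPKM). Without null replicate 1 the log2 difference was -0.62 for Acta2 and -0.58 for Tagln, against -0.89 and -0.80 with all libraries. In bulk RNA, fewer cells of a type and less RNA per cell cannot be told apart. Whether counting used strand is unknown (not given in the sources used here). Of the exon bases of Tagln, 985 of 1595 lay in annotated exons of genes on the opposite strand. Most of these bases lay in exons of Gm48529 and the rest in exons of Pcsk7, so their fragments cannot be told apart. Pcsk7 was at 3.66 and 3.97 FPKM (limma adjusted p = 0.457). These values cover only the smaller part of the overlap, and the level of Gm48529 was not examined.

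Ordered by level in control libraries, the genes ran Myl6, Myl12b, Mylpf, Myl12a, Myh9, Myh10, Tagln, Acta2, Myl9 and Myl4, and only Myl9 and Myl4 overlapped their neighbour. In null libraries Mylpf stood above Myl12b, Myl9 stood above Acta2, and Myl9, Acta2 and Myl4 overlapped their neighbours. By the same limma fit 4 of the 10 members were past the threshold, beside 25.2% of all loci. The count was 5 with median centring, 1 without control replicate 1, and 2 without control replicate 3 or null replicate 2. The groups did not overlap for 7 members, beside 44.1% of all loci. Mylpf and Myl12a were the 2 that were higher in null libraries, beside 21.6% of all loci, and Myl6, Myl12b, Myh10, Acta2 and Tagln the 5 that were lower, beside 22.5%. Nothing is read from these counts, because the same contrast chose the members. The members' median log2 difference was -0.11, and that of all loci tested was -0.0030.

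**Figure D3:**
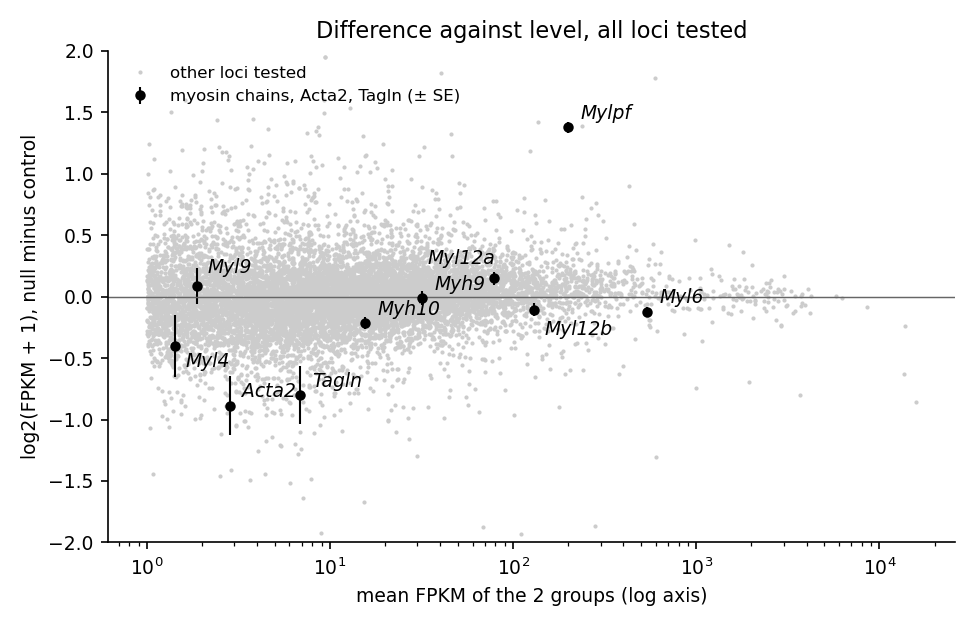
Difference on the log2(FPKM + 1) scale against mean FPKM on a log axis, with all tested loci within 2 log2 units in grey and the 10 genes in black with the SE of the fit. Mylpf lies near the top at 1.38, 7 genes lie between -0.40 and 0.15, and Acta2 and Tagln lie at -0.89 and -0.80 with wide error bars.

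Most of the skeletal muscle list was low in both groups. The fast heavy chains Myh1 and Myh4 stayed under 0.1 FPKM in every library, Myh2 was listed at 0, and the essential chain Myl1 reached at most 0.2 FPKM. Myod1, Myog and Myf6, the myogenic transcription factors, had at most 3 fragments per library, and Myf5 was listed at 0. Of 23 skeletal muscle markers, 6 were abundant enough to test, 2 were at 0 in every library and 10 stayed under 0.5 FPKM. Their summed level was 21.7 to 25.4 FPKM in control and 24.6 to 26.4 FPKM in null libraries, with overlapping groups. Tested genes of the list moved both ways. Ttn, the giant sarcomere protein titin, rose from 2.75 ± 0.0303 to 4.92 ± 0.381 FPKM (log2 difference 0.66, SE 0.08, limma adjusted p = 0.00171) and Tnnt1, slow skeletal troponin T, from 3.58 to 5.23 FPKM (adjusted p = 0.0158), while Actn3, the actinin of fast fibres, fell from 6.69 ± 0.828 to 3.01 ± 0.370 FPKM (adjusted p = 0.00149).

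Cardiac and smooth muscle markers were likewise low. Of 14 cardiac markers 4 were tested and Ryr2, the cardiac calcium release channel, rose from 1.14 to 1.85 FPKM (limma adjusted p = 0.0169, and 0.0594 without control replicate 2). Their summed level was 9.55 to 14.3 FPKM in control and 14.6 to 17.5 FPKM in null libraries. These groups did not overlap. The largest part of the sum was Myl7, at means of 5.70 and 8.59 FPKM from 10 to 31 fragments per library. Myl7 itself overlapped between the groups (limma adjusted p = 0.145). The part of cardiac-type cells in the Mylpf difference was not tested. Of 10 smooth muscle markers 3 were tested, 7 stayed under 0.5 FPKM in every library, and the summed level was 13.97 to 15.9 FPKM in control and 13.2 to 14.8 FPKM in null libraries. Smtn, which encodes smoothelin, fell from 7.98 to 6.03 FPKM (limma adjusted p = 0.0195, but 0.0723 without control replicate 2 and 0.0573 without control replicate 3). Des, which is also in the skeletal muscle list, went the other way, at 4.42 and 5.76 FPKM without overlap (adjusted p = 0.0602). Cnn1 was at 1.32 and 1.26 FPKM (adjusted p = 0.860). Myh11, the defining smooth muscle heavy chain, stayed under 0.12 FPKM in every library.

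Markers of fibroblasts, which can make Acta2 and Tagln, did not move as one. The collagen genes Col1a1 and Col1a2 were low throughout and lower still in null libraries. Col1a1 was at 0.826, 0.587 and 0.802 FPKM in control and 0.0540, 0.0975 and 0.107 FPKM in null libraries, and Col1a2 at 0.921, 1.31 and 1.17 FPKM against 0.0492, 0.111 and 0.0728 FPKM. These fragments numbered 85 and 145 in the control group and 10 and 10 in the null group. Their means lay under the level at which loci were tested. The other collagens of the list were mixed. Col3a1 was at 0.363 and 0.395 FPKM and Col5a1 at 1.68 and 1.29 FPKM (limma adjusted p = 0.188 for Col5a1), both with overlapping groups. Col5a2 was at 1.04 and 1.25 FPKM, with each null library above each control library (adjusted p = 0.307). Of the other fibroblast genes, Vim, an intermediate filament gene also expressed by ES cells, rose from 108 to 189 FPKM (limma adjusted p = 0.00387), and Fn1, fibronectin, fell from 53.1 to 39.3 FPKM (adjusted p = 0.0127). Thy1, a surface glycoprotein, rose from 1.65 to 2.98 FPKM (adjusted p = 0.0215, but 0.0590 without null replicate 2 and 0.0511 without null replicate 3). Of the 15 markers 6 were tested, 3 stayed under 0.5 FPKM in every library (Lum, Dcn and Postn), and the summed level, mostly Vim and Fn1, was 168 to 174 FPKM in control and 198 to 256 FPKM in null libraries. The part of fibroblasts in the lower Acta2 and Tagln values was not tested.

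The rest of the actomyosin machinery was read from lists of 102 genes that hold none of the 10 members, of which 66 passed the minimum of 1 FPKM. Of these 8 rose (12.1%) and 16 fell (24.2%), beside 12.8% and 12.4% of all loci, and their median log2 difference was -0.05 against -0.0030 over all loci tested. No gene among them rose as far as Mylpf, the largest upward difference being 0.59 for Myh13, and the largest downward difference was -0.80.

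Among other actins, Actb, the main cytoplasmic actin, was at 2210 ± 16.5 FPKM in control and 2284 ± 68.1 FPKM in null libraries (limma adjusted p = 0.379). Actg1, the other cytoplasmic actin, fell. It was at 459.8, 467 and 442 FPKM in control and 353, 278 and 259 FPKM in null libraries, with each null library below each control library. The ratio of means was 0.650 (log2 difference -0.63, SE 0.10, limma adjusted p = 0.00566), and the adjusted p was 3.60e-04 to 0.0262 across the alternatives. The muscle actins Acta1, Actc1 and Actg2 stayed under 1 FPKM in every library. Actins are alike in coding sequence, so reads may be shared among them. Of 1986 windows of 50 bases in Acta2, 7 occurred in transcripts of other genes, and the other actins were not examined in this way.

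Of 6 other light chain genes 2 were tested and none passed. Myl7, the atrial regulatory chain, was at 8.48, 5.48 and 3.15 FPKM in control and 8.28, 7.76 and 9.74 FPKM in null libraries (limma adjusted p = 0.145, but 0.0283 without control replicate 1). The groups overlapped through control replicate 1. Myl6b, the essential chain beside Myl6, was at 3.32 and 2.41 FPKM (adjusted p = 0.108). Of 12 other myosin II heavy chains 3 were tested, and only Myh13, an extraocular muscle chain, passed, from 3.12 ± 0.167 to 5.21 ± 0.185 FPKM (adjusted p = 0.00183). Myh14, the non-muscle heavy chain IIC, was at 3.22 and 2.94 FPKM (adjusted p = 0.360).

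The unconventional myosins, those other than myosin II, showed 5 falls and 0 rises among 14 tested of 24. That is 35.7% and 0%, beside 12.4% and 12.8% of all loci. Myo5a, a vesicle transport motor, fell from 8.33 ± 0.298 to 4.36 ± 0.296 FPKM (log2 difference -0.80, SE 0.07, limma adjusted p = 6.07e-04). Myo6, the motor that moves towards the minus end of actin, fell from 2.68 to 1.43 FPKM (adjusted p = 0.00482). Myo1d fell from 2.54 to 1.66 FPKM (adjusted p = 0.0290), a call lost without control replicate 1, 2 or 3 (0.0746, 0.0923 and 0.0671). Of the most abundant, Myo10 was at 35.5 and 33.6 FPKM (adjusted p = 0.199). The list's median log2 difference was -0.13.

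Genes for kinases and phosphatase subunits that act on the regulatory light chain are given by their levels. The smooth muscle light chain kinase gene Mylk and its paralogs Mylk2, Mylk3 and Mylk4 stayed under 0.2 FPKM in every library. Rock1 and Rock2, kinases that act on the light chain and its phosphatase, were at 20.4 and 18.7 FPKM in control and 22.5 and 20.2 FPKM in null libraries (limma adjusted p = 0.271 and 0.311, but 0.0369 for Rock1 without null replicate 1). Ppp1r12a, the targeting subunit of myosin phosphatase, rose from 43.7 to 48.1 FPKM (adjusted p = 0.0404). This call was lost without any one of control replicates 1, 2 and 3 or null replicates 2 and 3 (adjusted p = 0.0734 to 0.135), with quantile normalization (0.0700) and without the variance trend (0.0786). Dapk3, a kinase of the regulatory light chain, fell from 15.2 to 12.0 FPKM (adjusted p = 0.0149, but 0.0528 without control replicate 3).

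Actin-binding proteins moved both ways, with 5 rises (23.8%) and 6 falls (28.6%) among 21 tested of 24, beside 12.8% and 12.4% of all loci, and a median of -0.08. Tagln3, the neuronal paralog of transgelin, fell from 6.20 to 3.55 FPKM (limma adjusted p = 0.00475), while Tagln2 was at 75.0 and 76.3 FPKM (adjusted p = 0.834, with a sign that turned with quantile normalization). Cnn2, a calponin, fell from 20.9 to 14.2 FPKM (adjusted p = 0.00744). The actinins went in opposite directions, Actn1 from 42.9 ± 1.03 down to 31.3 ± 1.62 FPKM (adjusted p = 0.00136) and Actn4 from 87.5 ± 5.02 up to 113 ± 8.09 FPKM (adjusted p = 0.00691). Of 9 genes for SRF and its partners 6 were tested and limma called 0, beside 25.2% of all loci. At an unadjusted p under 0.05 there were also 0. The genes are too few for anything to be read from this count. Srf was at 9.01 and 8.63 FPKM (adjusted p = 0.649) and Elk1 at 7.48 and 7.38 FPKM (adjusted p = 0.883, with a sign that depended on the scaling).

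**Figure D4:**
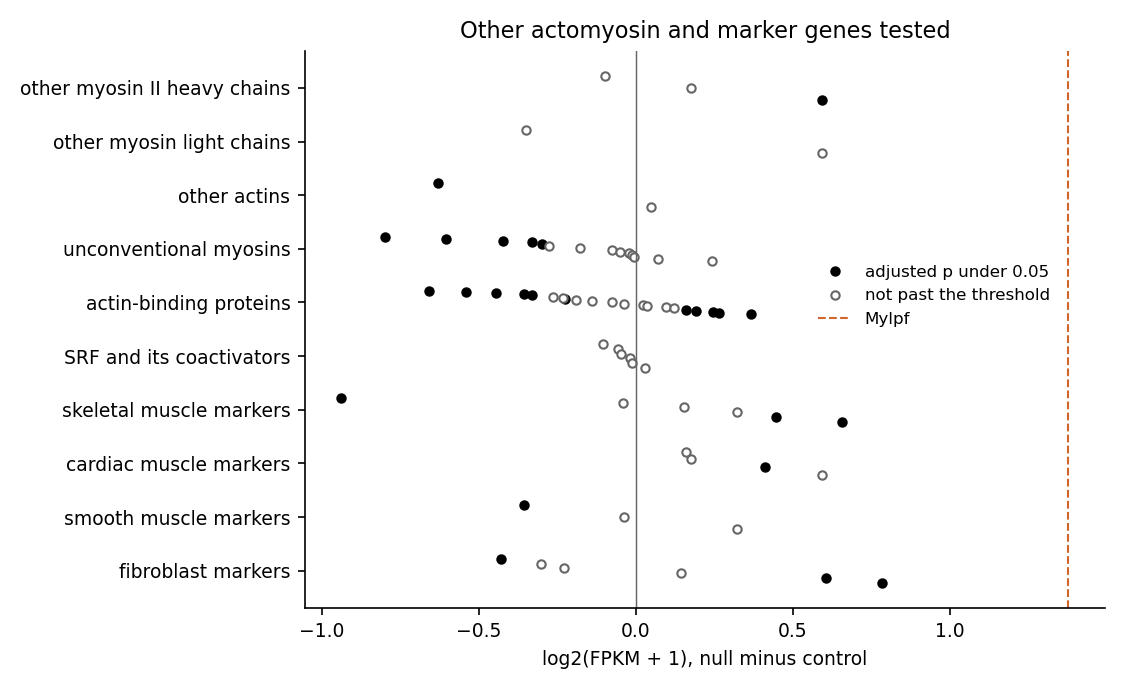
Log2 difference, null minus control, of each tested gene of 10 actomyosin and marker lists, filled where the adjusted p was under 0.05 and open otherwise, with Mylpf as a dashed line at 1.38. Filled points lie on both sides of 0 in the list of actin-binding proteins, and all points lie to the left of the line.

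Loci beside Mylpf did not show a difference of its size. Distances here are between the lowest coordinates of the RefSeq spans, whatever the strand. Of 10 loci within 100 kb of Mylpf by this distance, all were tested. Limma called 2 higher and 0 lower in null libraries, beside 12.8% and 12.4% of all loci. Their median log2 difference was -0.07. Tbc1d10b, 11.4 kb lower in coordinate than Mylpf, rose from 24.4 ± 0.603 to 30.7 ± 1.22 FPKM (limma adjusted p = 0.00373). Dctpp1, 48.1 kb higher in coordinate, rose from 236 ± 16.7 to 282 ± 3.96 FPKM (adjusted p = 0.0129). The nearest gene, the septin gene Sept1, which overlaps the RefSeq span of Mylpf, was at 97.3 ± 7.97 and 86.8 ± 5.86 FPKM (adjusted p = 0.142).

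**Figure D5:**
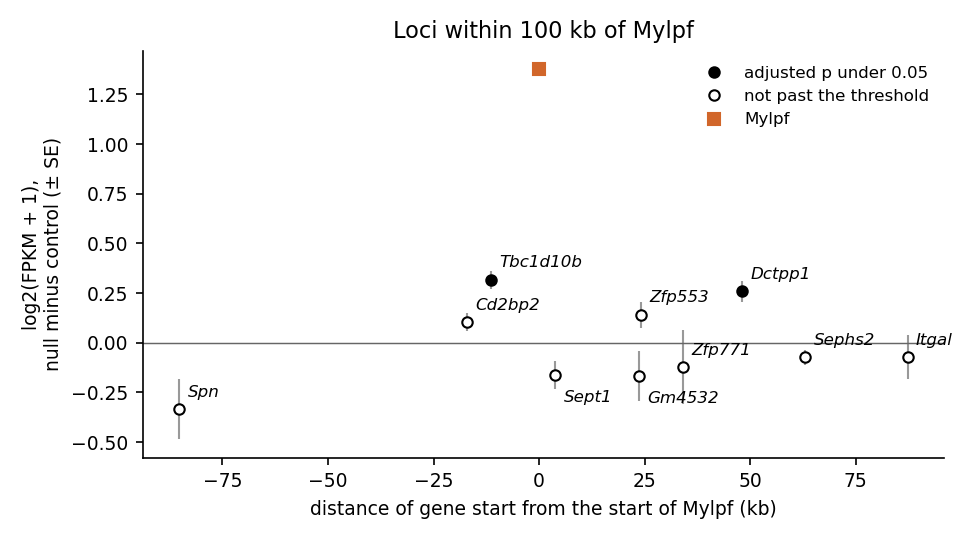
Log2 difference, null minus control, with its SE, of the 10 loci within 100 kb of Mylpf, filled where the adjusted p was under 0.05. The horizontal axis is the distance in kb between the lowest RefSeq coordinate of each locus and that of Mylpf, whatever the strand. The neighbours lie between -0.33 and 0.32, and Mylpf lies at 1.38.

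The loci whose 6 values followed Mylpf most closely, by the root mean square difference of log2(FPKM + 1) after subtraction of the control mean, were Calcoco2, Gabarapl2, Ptpn13, Hmga2 and Aqp3, among 5833 named loci whose mean reached 10 FPKM. Calcoco2 differed from Mylpf by 0.045 and was at 26.2, 25.6 and 25.6 FPKM in control and 64.8, 71.4 and 62.6 FPKM in null libraries. The ratios of null to control means were 2.57 for Calcoco2, 2.64 for Gabarapl2, 2.66 for Ptpn13, 2.36 for Hmga2 and 2.49 for Aqp3. The 5 loci lie on chromosomes 11, 8, 5, 10 and 4, none on chromosome 7 with Mylpf. They were picked for this likeness from the same 6 libraries, so it is a description.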

How the data were processed

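RNA of 6 mouse ES cell libraries was depleted of ribosomal RNA, per the labels' protocols. TopHat, Cuffdiff, Trim Galore and FastQC and the build mm10 are named in the submitters' processing notes, without versions or roles. Each file holds 1 value per locus, taken as FPKM made by the authors, since the deposited values are not whole and their totals differ. Scaling between libraries is unknown (not given in any sources used here).

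The members and lists were chosen with earlier results of these data known. All 174 list entries were matched by symbol. The test was limma 3.58.1 in R 4.3.3 (eBayes with a trend) on log2(FPKM + 1) for loci whose mean reached 1 FPKM, with Benjamini-Hochberg adjustment over 11480 loci, and was tested on simulated data. Differences on this scale understate changes of low genes. Ratios are of group means.

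Low FPKM values step by what 1 fragment is worth: 91.8% of 2625 values under 0.15 FPKM were whole multiples of that step within 0.01 of a fragment. From these steps relative depths were taken, and fragments per library as the fewest that make all 6 values whole. The implied transcript length was 0.646 to 1.23 times the GENCODE one for 9 members. It was 0.361 times for Myl12b, whose fragment number is therefore not printed. The GENCODE transcript of Myl12b extends past its RefSeq span at both ends, so this low ratio may reflect the annotation. Coordinates and promoters are from RefSeq GRCm38.p6, which is mm10, and exons from GENCODE M21.

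Named genes were the members, Zscan10, Actb and Actg1, up to 3 called genes per list with the largest difference or the 2 most abundant where none was called, called neighbours within 100 kb of Mylpf, and the 5 loci most like it. Some list genes under this rule are not reported here. Named after their values were seen were Pou5f1, Sox2, Pcsk7, Sept1, Col1a1, Col1a2, Lum, Dcn, Postn, Ppp1r12a, Rock1, Rock2, Actn4, Tagln2, Myh14, Myo10, the muscle actins, the light chain kinases and the muscle genes at or near 0. So were Col3a1, Col5a1, Col5a2, Des and Cnn1. Replicates were compared before averaging: correlations of log2 values were 0.975 to 0.983 within and 0.962 to 0.976 between groups.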

Additional observations from a re-analysis of the deposited data

How the results depend on the processing

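The Mylpf difference was 1.38 in all 6 libraries as deposited, 1.31 with quantile normalization and 1.34 to 1.42 without each library in turn. Of the 10 members 4 passed the threshold, beside 25.2% of all loci tested. The count was 5 with median centring, 2 without the FPKM minimum, 2 with the replicate block and 1 to 3 without each library in turn. Nothing is read from it, because the same contrast chose the members. Loci called numbered 1719 to 2914 without each library in turn, 930 to 1472 of them higher and 789 to 1442 lower, against 2894, 1468 and 1426. With the replicate block 2264 loci were called, along with 19 of the other actomyosin genes against 24. The replicate numbers pair nothing by the labels: the deviations of same-numbered libraries correlated at -0.0024, 0.11 and 0.053, and control replicate 1 correlated best with null replicate 2. The sign of Elk1 turned with median centring (0.0041) and quantile normalization (0.023), and its difference ran from -0.067 to 0.029 without each library in turn, above 0 without control replicate 3 (0.013) or null replicate 3 (0.029). That of Tagln2 turned with quantile normalization (-0.029) and ran from -0.014 to 0.094, below 0 without control replicate 1 (-0.0080), null replicate 1 (-0.014) or null replicate 3 (-0.014). Of 534 values of tested genes other than the members, 500 kept direction and side of the threshold, 23 lost the call, 3 gained it and 8 turned sign. Of 100 differences of the 10 members, which carry no test, 5 turned sign: Myh9 with median centring (0.011) and without control replicate 2 (0.020), null replicate 1 (0.0044) or null replicate 3 (0.020), and Myl9 without control replicate 1 (-0.07). With quantile normalization 2 members, Mylpf (1.31) and Myl6 (-0.17), moved by more than the spread between replicates. With the replicate block the calls of Myo1d (adjusted p = 0.0519) and Ppp1r12a (0.0610) were lost and Sept1 was called (0.0428). The causes were not tested. Depth limits Myl4 and Myl9, with at most 16 fragments in any library.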
